A study of Drosophila melanogaster with 6 samples.

Results

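3RHet is a scaffold of 2517507 bases that carries the name given in the Drosophila melanogaster assembly to sequence placed in the heterochromatin beside the centromere on the right side of chromosome 3. All its windows with a value above 0 in at least 1 library were taken, which gave 898 of its 1008 windows, out of 53434 such windows in the whole genome. The remaining 110 windows of 3RHet held no read in any library. Each window of 3RHet but the narrower last one spans 10 kb and the next begins 2.5 kb further on, so neighbours share reads and are not independent. A second count used only the 547 windows whose mean over libraries reached 20 reads, called well covered here, where a read is the lowest value above 0 of a library in full-width windows.

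Pericentric heterochromatin is the compact chromatin around centromeres. It is built of satellite repeats and transposon remnants with few genes among them, is marked by methylation of histone H3 on lysine 9 and by the protein HP1, and is known in flies, as in many animals, to be copied late in S phase. Replication timing is read here from the thymidine analogue BrdU, which cells build into DNA only while they copy it.

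The cells were Kc, a female line derived from late-stage embryos, labelled as WT with the genotype se/e. Cultures received 50 µg/ml BrdU for 1 hour, were sorted by DNA content into early, middle and late S phase, and their BrdU-labelled DNA was recovered with an antibody and sequenced. There were 2 libraries for each of the fractions Early S, Mid S and Late S. By their labels the fractions differ in the position of the sorted cells in S phase, and each library has its own extraction number. The libraries hold 1384200 to 2936097 reads, with the fewest in Late S. No untreated or unlabelled control and no input DNA is among the files used, and nothing in the labels says that the replicates came from separate cultures, so p-values rest on a spread among libraries that may be purely technical.

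3RHet took a growing share of the label as S phase went on. Of all reads, 0.235% and 0.209% fell on it in Early S (replicates 1 and 2, the order used throughout), 0.335% and 0.410% in Mid S and then 1.00% and 1.08% in Late S, counted over windows that do not overlap. Both Late S libraries lay above both Mid S libraries, and these above both Early S libraries, and the exact 95% Clopper-Pearson interval for Late S replicate 1 ran from 0.986% to 1.02%, far narrower than the gap to Mid S (intervals cover counting error only). The Late S mean of 1.04% ± 0.0568 was 4.69 times the Early S mean of 0.222% ± 0.0185 (SD, n = 2 each). The difference of these 2 means gave p = 0.0222 when all 90 arrangements of the libraries were enumerated (exact permutation test, two-sided), the smallest p this design allows. The place of Mid S did not enter this test. The scaffold makes up 1.80% of the sequence length in the files, so its share stayed below its length even in Late S.

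The level per window rose in the same order. RPKM, the reads in a window scaled by its length and by the size of the library, had a median over the 898 windows of 0.443 and 0.317 in Early S, then 0.714 and 1.01 in Mid S, rising to 3.10 and 3.32 in Late S. The fractions did not overlap in these medians, and the mean of Late S stood at 8.45 times the Early S mean and 3.73 times the Mid S mean. Among the 547 well covered windows Early S had library medians of 0.783 and 0.740 RPKM, Mid S of 1.46 and 1.97, and Late S of 5.17 and 5.64. The Late S mean was then 7.1 times the Early S mean. In the other 351 windows, 53.8% had at most 3 reads in both Early S libraries, the limit that a count of 0 allows (0.102 and 0.158 RPKM), so their folds rest on few reads.

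Late S exceeded Early S in most windows of the scaffold. Late S was called higher in 747 of 898 windows (83.2%), against 44.2% of all windows in the genome, by limma on log2(RPKM + 0.0341) with a Benjamini-Hochberg adjusted p under 0.05 over all 53434 windows. Early S was called higher in 8 windows (0.891%), against 37.6% of all windows. In the well covered windows Late S was higher in 482 of 547 (88.1%), against 44.1% of well covered windows in the genome, and Early S in 7, against 40.3%. The 20-read rule takes the mean over all libraries, and these 547 windows had medians of 96 and 78 reads in Late S against 23 and 14 in Early S. Windows of 3RHet could thus pass it through Late S, so counts, shares and folds of well covered windows are no separate support. The median difference of Late S minus Early S was 2.95 on the log2 scale over the 898 windows and 3.04 over the well covered ones. The lower and upper quartiles of the well covered windows were 2.44 and 3.44, and 53.9% exceeded 3. The share varied with the mean number of reads. Late S was called higher in 47.9% of the 142 windows with fewer than 5 reads, 94.3% of the 209 with 5 to 20, 94.4% of the 267 with 20 to 50, 88.3% of the 163 with 50 to 100 and 73.5% of the 117 with 100 or more. On 3LHet, the like scaffold of the left side, it also varied, with 26.5%, 61.8%, 87.2%, 87.0% and 59.3% in these classes. The share over all windows of the genome was not computed by class. Without any model, both Late S libraries lay above both Early S libraries in 782 windows (87.1%), against 48.8% of all windows, and in 495 well covered ones (90.5%), against 48.2%. The reverse held in 25 windows (2.78%), against 41.3%.

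Windows just on either side of the threshold of 20 reads had the same order of fractions. Just inside it, the window at 3RHet:1445001-1455000 had a mean of 20 reads and values of 0.307 and 0.158 RPKM in Early S and 2.48 and 2.75 in Late S. Just outside it, the window at 3RHet:2160001-2170000 had a mean of 19.8 reads with 0.477 and 0.264 RPKM in Early S and 1.67 and 2.75 in Late S. In both windows each Late S library lay above each Early S library.

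Mid S lay between the other fractions and nearer to Early S. Mid S was called higher than Early S in 437 windows (48.7%), against 43.5% of all windows in the genome, which is near the background. In well covered windows it was 356 (65.1%), against 45.8%. No window was called higher in Early S than Mid S by limma (20.5% of all windows were), nor was any at an unadjusted p under 0.05. Scaling changed this split: with libraries centred on their medians, Mid S was higher in 273 windows (30.4%, against 32.3% of all windows) and Early S in 11. After quantile normalization it was 31 (3.45%, against 24.4%) and 29. The count of 437 fell with any 1 library left out, most without Mid S replicate 2, but also without a Late S library. The share of all windows fell too, but hardly changed without a Late S library. The share of 3RHet windows then lay below that of all windows, except without Early S replicate 1. The median difference of Mid S minus Early S was then 0.84 without Mid S replicate 2 and 1.19 without Mid S replicate 1. It was 0.82 without Early S replicate 2 and 1.07 without Early S replicate 1. Late S was called higher than Mid S in 643 windows (71.6%), against 26.9% of all windows, and in 448 well covered ones (81.9%), against 27%. Mid S was called higher than Late S in 2 windows (0.223%), against 38.7%. The median difference was 0.99 for Mid S minus Early S and 1.91 for Late S minus Mid S on the log2 scale, so the step from Mid S to Late S was the larger one. Late S was called above both other fractions in 641 windows (71.4%), against 26.7% in the genome, among them the same number of well covered windows, 448, against 26.8%. The highest mean was that of Late S in 808 windows (90%, against 43.2%), of Mid S in 62 (6.9%, against 21.9%) and of Early S in 28 (3.12%, against 34.9%). No window was called highest in Mid S or in Early S by limma, against 2.43% and 20.4% of all windows. At an unadjusted p under 0.05 there was 1 window highest in Mid S and 0 highest in Early S. The order Early S below Mid S below Late S held in both replicate numbers in 620 windows (69%), against 35.3% of all windows, and in 443 well covered ones (81%), against 35.8%.

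Expressed as shares of the label summed over the 3 fraction means, a typical well covered window of 3RHet had 8.55% of it in Early S and 18.5% in Mid S, while 73.6% was in Late S (medians over 547 windows). On the arm 3R, the euchromatic sequence of the same chromosome side, the shares were 28.8%, 34.8% and 33.3%. In 3RHet 77.0% of well covered windows had a Late S share above 60%, and 13.5% had one below 40%. Low shares were not particular to 3RHet. On the scaffolds 3LHet and 2LHet, compared below, 38.0% and 42.6% of well covered windows lay above 60%, and 19.6% and 23.4% below 40%. On 3R these were 11.6% and 63.1%. Of the 74 windows of 3RHet below 40%, 67 lay within the single stretch of 265 kb described below, 4 crossed its edges and 3 lay elsewhere. That stretch was set by windows not called higher in Late S, so low shares inside it follow largely from its definition.

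**Figure D1:**
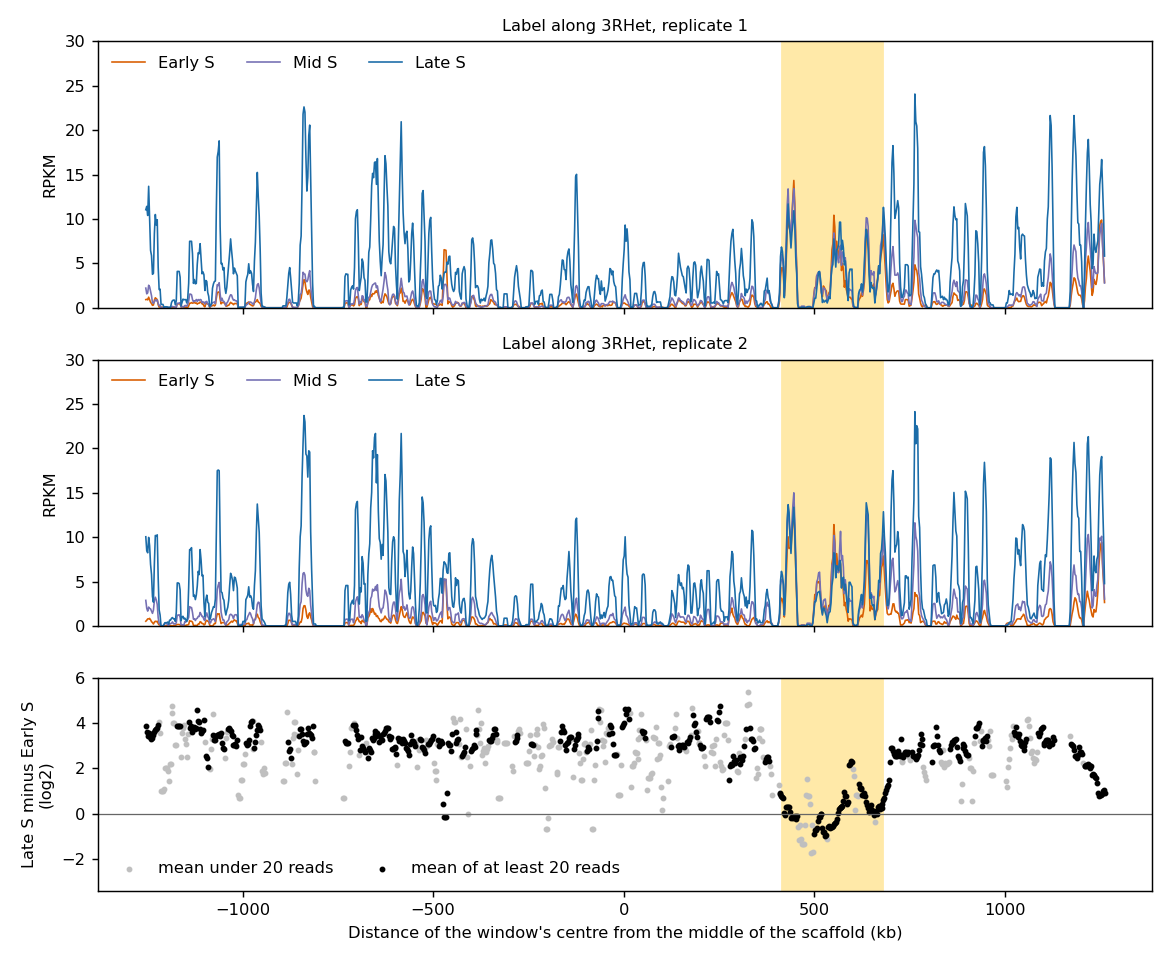
RPKM along 3RHet in replicate 1 (top) and replicate 2 (middle), and the log2 difference of Late S minus Early S per window (bottom; black, mean of at least 20 reads; grey, fewer), against distance from the middle of the scaffold in kb. The shaded stretch, from 416 to 681 kb right of the middle, is where the 3 fractions come together, while Late S stands above the other lines over most of the rest.

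Along the scaffold, nearly all well covered windows outside 1 stretch were called higher in Late S. The scaffold was divided by window start into 10 segments of 250 kb and a remainder of 17.5 kb nominal length. In the first 6 segments, 3RHet:1-1500000, the Late S mean of the library medians was 9.75 to 11.7 times the Early S mean, and all but 4 of the well covered windows were called higher in Late S. In segment 3, 3RHet:500001-750000, Early S had medians of 0.715 and 0.687 RPKM, Mid S of 1.25 and 1.77, and Late S of 6.30 and 7.37. All 75 of its well covered windows were called higher in Late S. In segment 6, 3RHet:1250001-1500000, the signal was lower in every fraction than in segment 3, with 0.238 and 0.106 RPKM in Early S, 0.393 and 0.454 in Mid S, and 2.02 in both Late S libraries. The Early S replicates differed by more than 2-fold there, and both lay far below Late S. In segments 9 and 10, 3RHet:2000001-2500000, the ratio was 8.33 and 8.83, and all 111 well covered windows were called higher in Late S.

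As a ratio of the highest to the lowest segment, the levels differed more in Early S than in Late S. Over the 10 full segments the Early S mean of library medians ran from 0.168 to 2.00 RPKM and that of Late S from 1.73 to 6.84. The highest Early S value was in segment 8, 3RHet:1750001-2000000, with 2.13 and 1.88 RPKM in Early S, 3.07 and 3.26 in Mid S, against 3.53 and 3.79 in Late S. Late S was still the highest there, but only 1.83 times Early S. In segment 7, 3RHet:1500001-1750000, the ratio was 6.22. Segment 8 held 30.6% and 34.1% of all 3RHet reads in the Early S libraries and 10.9% in each Late S library.

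**Figure D2:**
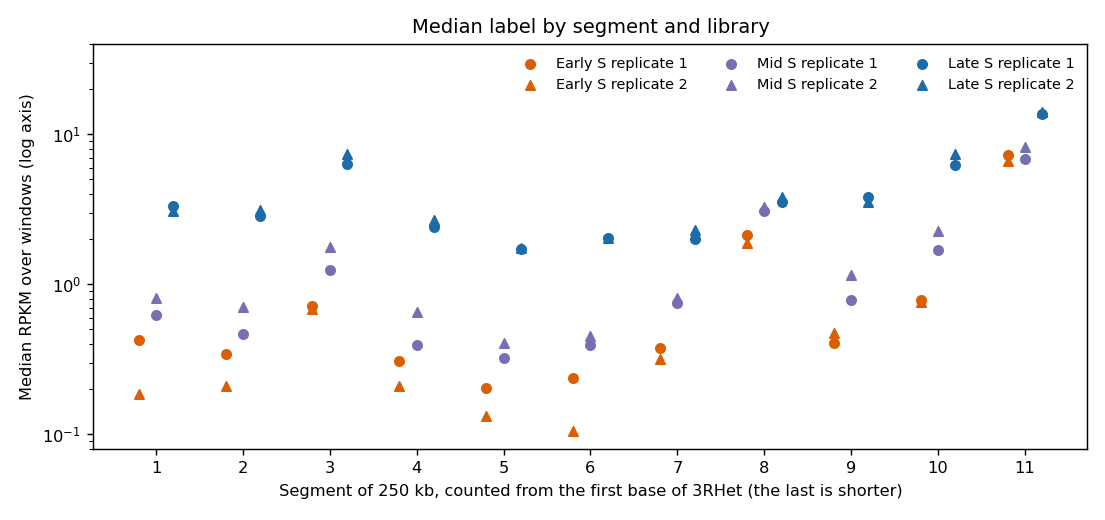
Median RPKM (log axis) over windows above 0 in each segment of 250 kb of 3RHet, with circles for replicate 1 and triangles for replicate 2 of each fraction. Late S lies highest in all 11 segments, and the 3 fractions come closest in segments 8 and 11.

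Late-labelled windows formed long runs. Runs were windows called higher in Late S with a log2 difference of at least 1, joined over gaps of at most 2 windows, with at least 5 windows, and since they are built from called windows their values are a description. There were 20 such runs covering 1952.5 kb, or 77.6% of the scaffold, with a median length of 77.5 kb, where the end of a run can reach over bases without reads because windows overlap. The longest, 3RHet:1372501-1650000, covered 277.5 kb with 0.422 and 0.337 RPKM in Early S, 0.772 and 0.927 in Mid S, with 2.96 and 3.18 in Late S. The second, 3RHet:522501-787500, covered 265 kb and was about as late, with mean differences of 3.12 here and 3.10 in the longest. Then came 3RHet:67501-250000 with 182.5 kb, 3RHet:792501-932500 with 140 kb and 3RHet:2265001-2392500 with 127.5 kb. The largest mean difference, 3.61, was in the run at the very start, 3RHet:1-47500, with 0.683 and 0.485 RPKM in Early S and 7.70 and 6.90 in Late S. It was followed by 3RHet:1247501-1322500 with 3.46, 3RHet:67501-250000 with 3.45, 3RHet:1177501-1245000 with 3.38 and 3RHet:2170001-2225000 with 3.33. These 5 runs lay on both sides of the stretch described next.

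The exception was a stretch of 265 kb, 3RHet:1675001-1940000, chosen after its values were seen, so no test is given for it. It runs from the first to the last of the runs of at least 5 well covered windows that were not called higher in Late S, and makes up 10.5% of the scaffold. Its contrast with the windows outside therefore follows largely from this definition, and the values below are a description. Of its 78 well covered windows 17 were called higher in Late S and 7 higher in Early S, while outside it 459 of 463 were called higher in Late S and none higher in Early S. The 6 windows across its edges were all called higher in Late S. In its well covered windows the library medians were 3.46 and 3.49 RPKM in Early S, 4.05 and 4.16 in Mid S, with 3.99 and 4.15 in Late S. Outside the stretch they were 0.647 and 0.634 in Early S, 1.21 and 1.56 in Mid S, with 5.28 and 5.85 in Late S. The stretch thus held more label than the rest of the scaffold in Early S and Mid S and less in Late S. Its median shares were 30.4% in Early S and 35.9% in Mid S, with 33.2% left to Late S, against 7.93%, 17.5% and 74.6% outside. By reads, the stretch took 38.5% and 42.5% of the scaffold's reads in Early S, 29.7% and 27.5% in Mid S, with 9.07% and 9.76% in Late S, where it spans 10.3% of the non-overlapping windows.

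Of the 61 well covered windows of this stretch not called higher in Late S, 59 fell in 3 blocks. The first, 3RHet:1675001-1717500, was the most strongly labelled, with 8.29 and 7.82 RPKM in Early S, 8.91 and 9.57 in Mid S, with 7.43 and 8.88 in Late S. Both Mid S libraries lay above the others, which overlapped, and the mean difference of Late S minus Early S over its 14 windows was 0.01 on the log2 scale. It holds the window of highest mean signal on the scaffold, 3RHet:1700001-1710000, with 14.3 and 12.7 RPKM in Early S, 13.4 and 15.0 in Mid S, with 10.9 and 13.4 in Late S (difference -0.16, limma adjusted p = 0.373). Windows without any read lie on both sides of this block, at 3RHet:1645001-1667500 and 3RHet:1717501-1727500. The second block, 3RHet:1752501-1837500, had 4.18 and 4.75 RPKM in Early S, 3.87 and 4.99 in Mid S, with 3.76 and 3.89 in Late S, so both Early S libraries lay above both Late S libraries. The third, 3RHet:1892501-1940000, had 4.21 and 3.48 RPKM in Early S, 4.84 and 5.16 in Mid S, with 3.88 and 5.34 in Late S, so Late S overlapped with both other fractions, while both Mid S libraries lay above both Early S libraries. Between the second and the third block a short late run at 3RHet:1845001-1865000 had 0.933 and 0.623 RPKM in Early S and 3.54 and 3.84 in Late S.

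**Figure D3:**
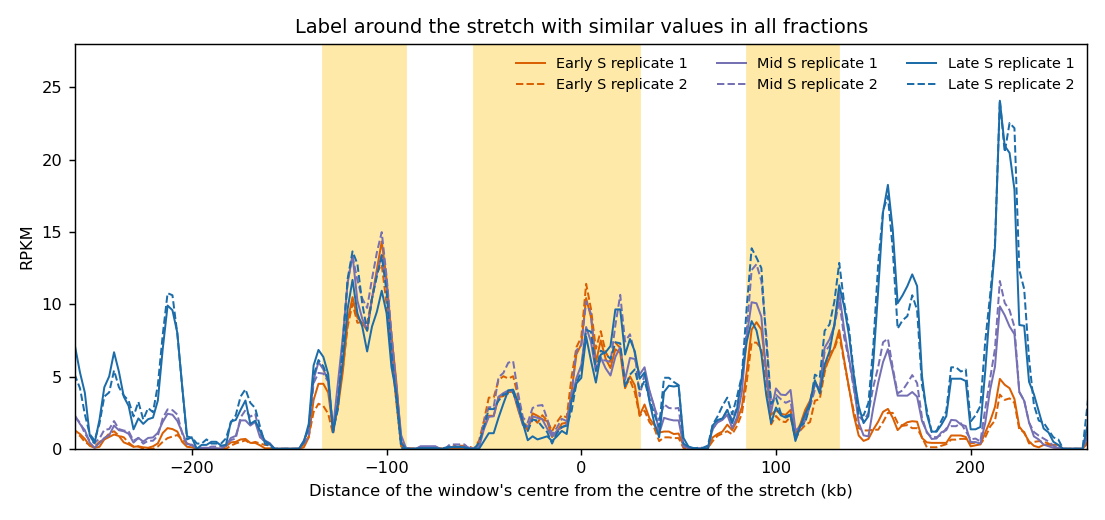
RPKM in each library (solid, replicate 1; dashed, replicate 2) against distance in kb from the centre of the 265 kb stretch. The shaded blocks, whose outer edges lie 132 kb either side of the centre, show the lines of the 3 fractions close to each other, with Early S above Late S in part of the second. Late S rises above the others to the right of the last block.

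The 8 windows of 3RHet called higher in Early S all lay in the second block. They formed 2 neighbouring groups, 3RHet:1782501-1797500 with 3 windows and 3RHet:1797501-1817500 with 5. In the second group Early S had 7.44 and 8.16 RPKM, Mid S 5.98 and 7.47, and Late S 5.32 and 5.77, so Early S was higher, by less than 2-fold. In the first group Early S had 1.59 and 1.83 RPKM and Late S 0.718 and 1.01. Leaving out a library, which leaves 1 in its fraction, changed the number of these calls. This number fell without either Early S replicate, most without replicate 2, and rose without Late S replicate 2. With libraries centred on their medians it was 14, and after quantile normalization 34. Each of these windows was called against Late S only, and none against Mid S.

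No transition could be measured at the left edge of the stretch. The window at 3RHet:1667501-1677500 had 4.50 and 3.12 RPKM in Early S and 6.84 and 6.14 in Late S, and the bases before it, 3RHet:1645001-1667500, held no read. On its right, the difference of Late S minus Early S was 0.93 at 3RHet:1940001-1950000, 1.17 at 3RHet:1945001-1955000 and 2.88 at 3RHet:1955001-1965000. In this last window the values were 1.87 and 1.32 RPKM in Early S and 10.9 and 12.8 in Late S, so the difference rose from 0.93 to 2.88 within 15 kb of window starts. Windows there overlap, which smooths the edge.

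A far smaller exception lay inside the late part. Of the well covered windows not called higher in Late S, 4 lay outside the stretch, at 3RHet:780001-797500, and all 4 contain the bases 787501 to 790000, so they share reads. In the window at 3RHet:782501-792500 Early S had 6.54 and 5.23 RPKM, Mid S 2.57 and 5.30, and Late S 3.88 and 7.22. The replicates of Mid S and of Late S differed by about 2-fold there, and Early S and Late S overlapped. The late run to the left ended at 787500. To the right, the window at 3RHet:790001-800000 was called higher in Late S with a difference of 0.90, too small for a run, and the next late run started at 792501.

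At the last bases of the scaffold the difference of Late S minus Early S was smaller than before them, and Early S was higher. The window at 3RHet:2475001-2485000 had 4.90 and 2.85 RPKM in Early S, 7.78 and 8.88 in Mid S, with 15.9 and 17.2 in Late S, a difference of 2.13. The window at 3RHet:2507501-2517500, the last that lies fully on the scaffold, had 9.88 and 9.40 RPKM in Early S, 9.49 and 10.1 in Mid S, with 16.7 and 19.1 in Late S. The difference there was 0.89 ± 0.15 (limma SE, adjusted p = 7.94e-05), so Late S was still higher, and the difference of Mid S minus Early S was 0.02 ± 0.15 (adjusted p = 0.909 by limma). Of the windows that start after it, 3 run past the last base but are scaled as 10 kb, so their levels are understated. The very last window is narrower and held no read.

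The highest Late S signal lay to the right of the 265 kb stretch. The window at 3RHet:2017501-2027500 had 24.1 RPKM in each Late S library, against 9.85 and 11.6 in Mid S, and 4.84 and 3.75 in Early S, a difference of 2.49 ± 0.17 (limma SE). At 3RHet:2472501-2482500 Late S had 19.0 and 21.3 RPKM and Early S 5.82 and 3.28. Both windows were picked by their mean over all libraries, and both had a smaller difference than the median of the scaffold. Strong Late S label did not always go with a smaller difference. A window centred 839 kb left of the scaffold's middle had 22.6 and 23.7 RPKM in Late S and 3.17 and 2.27 in Early S. Its difference was 3.09, above that median. Across reads classes the median difference was 3.12 for 20 to 50 reads, 3.07 for 50 to 100 and 2.49 for 100 or more, and the last class includes windows of the 265 kb stretch.

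3RHet was compared with the like scaffold of the left side, 3LHet, with 2LHet of chromosome 2 and with the arm 3R. Each comparison took the median log2 level of 3RHet minus that of the other sequence within each library, which cancels library size, and asked whether this moved from early to late. Against 3LHet, 3RHet was lower by 0.95 and 1.14 in the Early S pair, and by 0.93 and 0.66 in Mid S, but higher by 0.20 and 0.24 in Late S. Early S minus Late S thus came to -1.26 ± 0.14 (log2; error combined from both SDs, n = 2 each), a change of 2.40-fold, with an adjusted p = 0.0333 over 3 comparisons in the exact permutation test. With 10 times the pseudocount it was -0.88 and did not pass (adjusted p = 0.0667, exact permutation). Well covered windows alone gave -1.18, with 60.9% of windows well covered on 3RHet and 65.2% on 3LHet. Late S was called higher in 79.2% of the well covered windows of 3LHet, and their median Late S share was 56.2% against 73.6% in 3RHet. Early S was called higher in 14% of them and in 23.4% of those of 2LHet, against 1.28% on 3RHet and 40.3% in the genome.

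Against the arm 3R the difference was -2.78 ± 0.26, with an adjusted p = 0.0333 (exact permutation). 3RHet lay below the arm in each library, by 3.97 and 4.33 on the log2 scale in Early S, by 3.56 and 3.06 in Mid S, and by 1.41 and 1.33 in Late S. In well covered windows the Late S level was 5.40 ± 0.329 RPKM on 3RHet and 8.34 ± 0.0611 on 3R, while the Early S level was 0.761 ± 0.0310 against 7.25 ± 0.245 (SD of library medians, n = 2). With 10 times the pseudocount it was -2.11. Its own exact permutation p stayed at 0.0222, and the adjusted p became 0.0667 because the p of the comparison with 3LHet rose. Against 2LHet, with 119 windows, the difference of -0.42 ± 0.34 did not pass (adjusted p = 0.178, exact permutation). It was -0.67 without Early S replicate 1 and -0.18 without Early S replicate 2, and the Mid S values of 0.69 and 0.71 did not lie between those of Early S (1.00 and 0.52) and Late S (1.18 and 1.18). The median window of 2LHet held only 5 and 4 reads in Early S. In well covered windows, 47 on 2LHet, the difference was -0.86 and did not pass either (adjusted p = 0.111, exact permutation). There 3RHet lay below 2LHet in Early S, by 0.42 and 0.18.

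**Figure D4:**
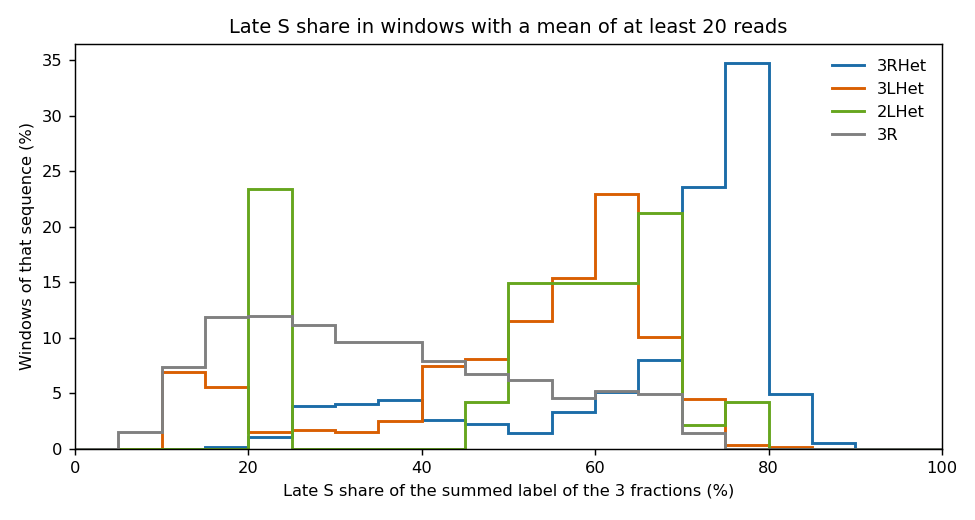
Distribution of the Late S share of the label summed over the 3 fraction means, in %, over the well covered windows of 3RHet, 3LHet, 2LHet and the arm 3R, as the % of windows of each sequence per 5% of share. The largest part of 3RHet lies between 70% and 80%, to the right of the bulk of 3LHet and 3R, with a low tail between 20% and 45%. 3LHet and 2LHet also have windows at low shares, many of them between 10% and 20% on 3LHet and between 20% and 25% on 2LHet.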

How the data were processed

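The members and lists were chosen with earlier results of these data known. Per the file headers, the authors deposited RPKM per window for each library, in 55900 windows on 14 sequences. For the aligner, genome build, read filters and input correction, nothing is given in the sources used here. Sequence names such as 3RHet are of the Release 5 type. Coordinates are those of the files, counted from 1. No genome of that build was at hand, so sequences, genes and base composition were not used here. RPKM of full-width windows were whole multiples of the value of 1 read within 3.18e-12 reads. The 3 files combining both replicates were not used. limma 3.58.1 in R 4.3.3 fitted log2(RPKM + 0.0341) of the 6 libraries (lmFit, eBayes with trend, 3 residual and 10.7 prior degrees of freedom). The fit was also run on simulated data, but with noise drawn separately for each window. That run therefore gives no error rate for the overlapping windows of 3RHet. The pseudocount, the lowest value above 0, understates differences of windows with few reads. Windows named are the 5 longest and the 5 most late runs, every early call, windows at the 20-read threshold, the 5 of highest mean, stretches at 0 and all segments. The 3 blocks of the 265 kb stretch, the 780001 to 797500 site, edge windows and the window 839 kb left of the middle were chosen after values were seen. Mid S replicate 1 was assigned from its title. Summaries were computed in Python 3.11.15 (pandas 2.3.3, NumPy 2.4.6, SciPy 1.17.1) and drawn with matplotlib 3.10.9.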

Additional observations from a re-analysis of the deposited data

How the results depend on the processing

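The share of 3RHet windows called higher in Late S than Early S stayed within 1.5 times its value, 83.2%, under the alternatives run, from 65.7% after quantile normalization to 88.1% in the fit on well covered windows. Late S against Mid S also did, from 49.6% without Mid S replicate 1 to 82.1% in the fit on well covered windows. The share higher in Mid S than Early S was 30.4% with libraries centred on their medians, 3.45% after quantile normalization and 15.5% to 39.5% with a library left out. The main share, 48.7%, stood above the 43.5% of all windows. Under the scalings it lay below that of all windows, 32.3% when centred and 24.4% after quantile normalization. With a library left out it also lay below, except without Early S replicate 1. For the scalings the cause was not tested, and leaving out a library leaves 1 in its fraction. Leaving out a library gave an Early S minus Late S difference of -1.36 to -1.16 against 3LHet and -2.96 to -2.60 against 3R, and a read share difference of 0.779 to 0.859 percentage points. With 10 times the pseudocount these differences were -0.88 and -2.11, each with an adjusted p = 0.0667 (exact permutation); for 3LHet the cause was not tested, and for 3R only the adjustment moved. In limma's fit with the replicate block, 83.3% of windows were higher in Late S than Early S, 50.3% higher in Mid S than Early S and 72.7% higher in Late S than Mid S. The exact permutation test within replicate numbers cannot go below p = 0.0556, so the calls of the read share (0.819 percentage points), of 3LHet (-1.26) and of 3R (-2.78) could not pass. The labels do not say whether libraries of the same replicate number share more than that number. Over all windows, replicate differences correlated at -0.03 between Early S and Mid S and at 0.02 between Early S and Late S. Between Mid S and Late S the correlation was 0.21. On 3RHet these values were -0.04, -0.07 and 0.30. In the 265 kb stretch, chosen after seeing the data, 21.8% of well covered windows were higher in Late S. This share was 7.69% after quantile normalization, with more calls in Early S, and 12.8% to 28.2% with a library left out, with 14 early against 13 late calls (16.7%) without Late S replicate 2. Outside it the share stayed between 97.0% and 99.1%, a contrast that the definition of the stretch largely fixes. The block gave 13 windows higher in Early S in place of 8. Precision is lowest in Early S, where the median window of 3RHet held 13 and 6 reads.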

Other observations

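Stretches without any read in the 6 libraries interrupted 3RHet at 15 places. The longest were 3RHet:447501-525000 (77.5 kb), 3RHet:315001-367500 (52.5 kb), 3RHet:2385001-2432500 (47.5 kb), 3RHet:2225001-2265000 (40 kb) and 3RHet:1645001-1667500 (22.5 kb). Late runs border several of them, such as the one ending at 452500 and the one starting at 522501.

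Neighbouring well covered windows of 3RHet were alike over long distances. Across pairs of windows, which are not independent, Pearson's r of the Late S minus Early S difference was 0.865 at 10 kb (363 pairs), 0.622 at 80 kb (287 pairs) and 0.364 at 160 kb (277 pairs). On 3LHet r was 0.962, 0.274 and 0.243 at these distances, and on 3R 0.971, 0.422 and 0.042. The pairs share libraries, and on 3RHet they include the 265 kb stretch.

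The replicates of each fraction differed on 3RHet, with replicate 1 by its median higher in Early S and lower in Mid S and Late S. Mid S replicate 1 was above replicate 2 in 111 of the 547 well covered windows (20.3%), against 48.7% of well covered windows in the genome, with a median log2 difference of -0.31. Early S replicate 1 was above replicate 2 in 68.6% of them, against 55.6% in the genome, with a median of 0.25, and Late S replicate 1 in 34.9%, against 45.4%, with a median of -0.14.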
